A study of Mus musculus with 8 samples.

Results

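The transcription factor subunit gene Hif1a and 9 genes known as targets of hypoxia-inducible factor 1 (HIF-1) were followed in splenic T cells of mice with and without succinate dehydrogenase subunit A (SDHA). The 10 genes, Hif1a, Egln1, Egln3, Bnip3, Pdk1, P4ha1, Ak4, Gbe1, Vegfa and Selenbp1, are 10 of the 20170 genes in the count matrix. They were chosen by name, and were chosen on the measured difference between stimulated SDHA-KO and stimulated WT libraries, so for them that difference is described below without a test. All 10 were found in the matrix, and all 10 passed the filter on low counts in every cell set used.

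Pan-T cells were purified from the spleen and either left unstimulated or stimulated for 48 hours with antibodies to CD3 (5 μg/mL) plus CD28 (2.5 μg/mL), and dead cells were removed before 3′ single-cell RNA sequencing. The genotype labelled KO (SDHA-KO) is, per the study, Sdha fl/fl CD4-Cre, in which the CD4-Cre transgene deletes floxed Sdha in T cells from their double-positive stage in the thymus, so other cells keep Sdha. The genotype labelled WT keeps Sdha, and the labels do not say whether it carries the floxed alleles without Cre; the study names Sdha fl/fl without CD4-Cre as WT in other experiments. The labels give no age, and the study used young adult mice. Each of the 4 groups (WT and SDHA-KO, unstimulated and stimulated) has 2 libraries, and the labels do not say whether replicates came from separate mice, so the p-values below measure the spread between these libraries only.

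HIF-1 is a heterodimer of an oxygen-labile alpha subunit and a stable beta subunit, ARNT. With oxygen present, prolyl hydroxylases mark the alpha subunit for capture by the von Hippel-Lindau protein (VHL) and for degradation. When hydroxylation fails, the alpha subunit accumulates as protein, pairs with ARNT and binds hypoxia response elements, whose core reads ACGTG or GCGTG, near genes for glucose uptake, glycolysis, glycogen storage, mitophagy, collagen hydroxylation and vessel growth. T cell receptor signaling also raises HIF-1 in T cells held in normal oxygen. Prolyl hydroxylases use 2-oxoglutarate and release succinate, the substrate of succinate dehydrogenase, and succinate can inhibit them. The comparison of SDHA-KO with WT therefore asks whether the loss of SDHA raised or lowered these transcripts.

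The promoters were examined for the response element because the 9 target genes are grouped on it by name. In the 250 bases before each start site listed by RefSeq (GRCm38.p6), the cores ACGTG and GCGTG were searched on both strands, so that CACGT and CACGC also counted, with overlaps such as CACGTG counted on each strand. At least 1 match was found for 9 of the 10 genes. A match was held by 38.6% of all 32851 listed promoters and by 41.5% of 27025 genes, so the core by itself is common. Gbe1 had none in this window, and Vegfa had none before its first listed start and 2 before its second. The stretches of Egln1, Egln3, Bnip3, Pdk1 (its first listed start), P4ha1 and Selenbp1 follow, 5′ to 3′ on the strand of the gene and ending at the base before the start, because they show how the number of cores differs among genes that were lower in stimulated SDHA-KO cells, the difference they were chosen on. Capitals mark each match.
Egln1: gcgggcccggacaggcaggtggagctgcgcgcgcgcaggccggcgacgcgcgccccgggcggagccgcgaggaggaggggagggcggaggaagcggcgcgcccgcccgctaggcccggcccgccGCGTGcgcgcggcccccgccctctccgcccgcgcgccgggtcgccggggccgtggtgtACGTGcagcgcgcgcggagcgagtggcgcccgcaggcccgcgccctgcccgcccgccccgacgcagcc
Egln3: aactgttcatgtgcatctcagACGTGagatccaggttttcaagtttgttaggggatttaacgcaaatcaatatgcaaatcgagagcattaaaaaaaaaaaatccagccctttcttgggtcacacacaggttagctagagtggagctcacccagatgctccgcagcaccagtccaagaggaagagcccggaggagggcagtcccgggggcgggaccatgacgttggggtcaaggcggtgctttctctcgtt
Bnip3: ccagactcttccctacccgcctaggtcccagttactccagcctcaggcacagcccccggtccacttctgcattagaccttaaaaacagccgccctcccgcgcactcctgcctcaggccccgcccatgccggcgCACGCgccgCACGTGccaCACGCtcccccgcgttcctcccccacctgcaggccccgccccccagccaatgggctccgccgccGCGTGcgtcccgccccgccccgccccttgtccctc
Pdk1: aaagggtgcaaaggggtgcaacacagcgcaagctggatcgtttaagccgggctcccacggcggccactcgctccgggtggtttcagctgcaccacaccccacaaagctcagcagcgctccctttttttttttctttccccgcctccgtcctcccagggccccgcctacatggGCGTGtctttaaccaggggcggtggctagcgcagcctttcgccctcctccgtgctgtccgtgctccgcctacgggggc
P4ha1: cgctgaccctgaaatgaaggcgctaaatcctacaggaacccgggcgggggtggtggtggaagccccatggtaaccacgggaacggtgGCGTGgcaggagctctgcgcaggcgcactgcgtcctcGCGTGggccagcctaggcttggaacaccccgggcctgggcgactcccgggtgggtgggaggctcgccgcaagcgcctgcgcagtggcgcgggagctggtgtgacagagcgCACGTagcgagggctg
Selenbp1: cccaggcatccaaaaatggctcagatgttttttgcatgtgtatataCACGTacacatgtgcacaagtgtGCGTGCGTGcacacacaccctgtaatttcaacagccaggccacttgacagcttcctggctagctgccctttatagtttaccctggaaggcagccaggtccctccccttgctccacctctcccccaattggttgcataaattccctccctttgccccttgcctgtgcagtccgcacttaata
They lie at chr8:124949255-124949504 (Egln1, minus strand), chr12:54203875-54204124 (Egln3, minus), chr7:138909507-138909756 (Bnip3, minus), chr2:71872974-71873223 (Pdk1, plus), chr10:59323046-59323295 (P4ha1, plus) and chr3:94932833-94933082 (Selenbp1, plus), each running up to an annotated start. Bnip3 held 5 matches, of which 4 fell between 117 and 99 bases before the start. P4ha1 and Selenbp1 held 3 each, Egln1 held 2, and Egln3 and Pdk1 held 1 each. A match is a description of the sequence and was not measured as a bound site.

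Libraries held 1395 to 1801 cells and 10947009 to 51398728 unique molecular identifiers (UMIs), and levels are given as CPM, UMI counts scaled to a common library total after TMM normalization. The T cell markers Cd3d, Cd3e, Cd3g, Trac and related genes summed to 2025.6 to 5641.5 CPM in every library, whereas erythroid and platelet markers summed to at most 4.03 and 1.97 CPM. Markers of B cells summed to at most 17.5 CPM and those of myeloid cells to 58.8 to 144.7 CPM. Natural killer cell markers summed to 10.2 and 10.9 CPM in stimulated WT and 21.3 and 22.3 CPM in stimulated SDHA-KO libraries. Sdha, the targeted gene, was at 98.0 and 99.1 CPM in unstimulated WT and at 46.6 and 46.1 CPM in unstimulated SDHA-KO libraries (log2 fold change −1.09, SE 0.0713, edgeR quasi-likelihood adjusted p = 0.000362). It was at 74.7 and 73.9 CPM in stimulated WT and 37.6 and 34.1 CPM in stimulated SDHA-KO libraries (−1.05, SE 0.0652, adjusted p = 6.07e-06), and 3′ tags can also count transcripts that carry the deletion. In stimulated cells the difference was larger in the CD4 class (74.0 and 73.1 against 26.5 and 26.4 CPM, −1.47, adjusted p = 9.97e-08) than in the CD8 class (76.2 and 74.9 against 53.3 and 50.4 CPM, −0.54, adjusted p = 8.73e-05), and this gap was not tested. The stimulated genotypes differed in more than Sdha: 31.77 and 35.54% of WT cells but 80.1 and 83.93% of SDHA-KO cells had under 10% mitochondrial UMIs (percent.mt). The median cell held 13809 and 13745 UMIs in WT and 25116.5 and 25465.5 in SDHA-KO. In the CD8 class, cells with a UMI of the γδ T cell gene Trdc made up 3.67 and 4.92% of WT and 59.1 and 56.06% of SDHA-KO cells. Before stimulation these shares were 3.9 and 3.41% in WT and 19.69 and 15.21% in SDHA-KO. These differences move with genotype, so values in cells with percent.mt under 10 and in strictly defined CD4 and CD8 cells (a UMI of the class's own coreceptor, none of the other coreceptor and none of Trdc) stand beside the results.

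Stimulation raised 9 of the 10 genes in WT T cells and lowered Pdk1. This comparison shares the stimulated WT libraries with the difference on which the genes were chosen. Its p-values for these genes are therefore not independent of that choice. Hif1a, which encodes the oxygen-regulated alpha subunit, was at 71.9 and 60.7 CPM in unstimulated and at 195.5 and 218.5 CPM in stimulated WT libraries, 3.13-fold higher (log2 fold change 1.64, SE 0.139, adjusted p = 3.25e-06). Among 15262 genes tested, 37.0% were called higher and 31.9% lower in this comparison, so calls were common in both directions. The median log2 fold change of the 10 genes was 3.29 and that of all genes was 0.08. The groups overlapped for none of the 10, and the share of all genes without overlap was not computed.

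The prolyl hydroxylases rose by different amounts. Egln1, which encodes PHD2, the main oxygen sensor of the pathway, was at 42.4 and 40.0 CPM before and 169.4 and 177.8 CPM after stimulation (4.21-fold, SE of the log2 value 0.0976, adjusted p = 4.94e-08). Egln3, which encodes PHD3, a hydroxylase that is itself a HIF target, went from 1.86 and 2.89 to 139.7 and 166.6 CPM (63.5-fold, SE 0.251, adjusted p = 2.31e-08). Egln3 was thus close to undetected before stimulation, with 50 UMIs in both unstimulated WT libraries together.

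Gbe1, the glycogen branching enzyme, rose from 28.9 and 28.3 to 122.4 and 130.0 CPM in WT (4.42-fold, SE 0.094, adjusted p = 3.09e-08). P4ha1, a catalytic subunit of collagen prolyl 4-hydroxylase, rose from 28.5 and 33.7 to 83.6 and 89.2 CPM (2.77-fold, SE 0.127, adjusted p = 3.74e-06). Bnip3, a mitophagy receptor of the outer mitochondrial membrane, rose from 3.11 and 3.16 to 101.1 and 126.1 CPM (36.2-fold, SE 0.467, adjusted p = 5.16e-06). Selenbp1, which encodes selenium-binding protein 1, rose from 0.828 and 0.903 to 16.6 and 21.1 CPM (21.6-fold, SE 0.297, adjusted p = 5.93e-07).

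The adenylate kinase gene Ak4 and the vascular growth factor gene Vegfa were nearly absent before stimulation. Ak4, a mitochondrial matrix kinase, had 3 UMIs in unstimulated and 3220 in stimulated WT libraries, a ratio of 205 with an exact counting interval (95%) of 69.9 to 992. Vegfa had 6 and 2096 UMIs, a ratio of 66.6 with an interval of 30.5 to 182. Both were called higher by edgeR (adjusted p = 2.19e-07 for Ak4 and 9.8e-07 for Vegfa).

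Pdk1, the pyruvate dehydrogenase kinase that holds pyruvate out of the mitochondrial tricarboxylic acid cycle, went the other way. It was at 125.0 and 121.4 CPM in unstimulated and 84.3 and 84.5 CPM in stimulated WT libraries (log2 fold change −0.55, SE 0.108, adjusted p = 0.00131). Scaling by total UMIs alone moved the median of all genes in this comparison from 0.08 to 0.43 and left 7451 genes called higher and 3279 lower in place of 5647 and 4872. With that scaling the Pdk1 value was −0.20 and not called, and in the CD8 class it turned to 0.13. In the CD4 class Pdk1 stayed called under that scaling, at −0.38.

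**Figure D1:**
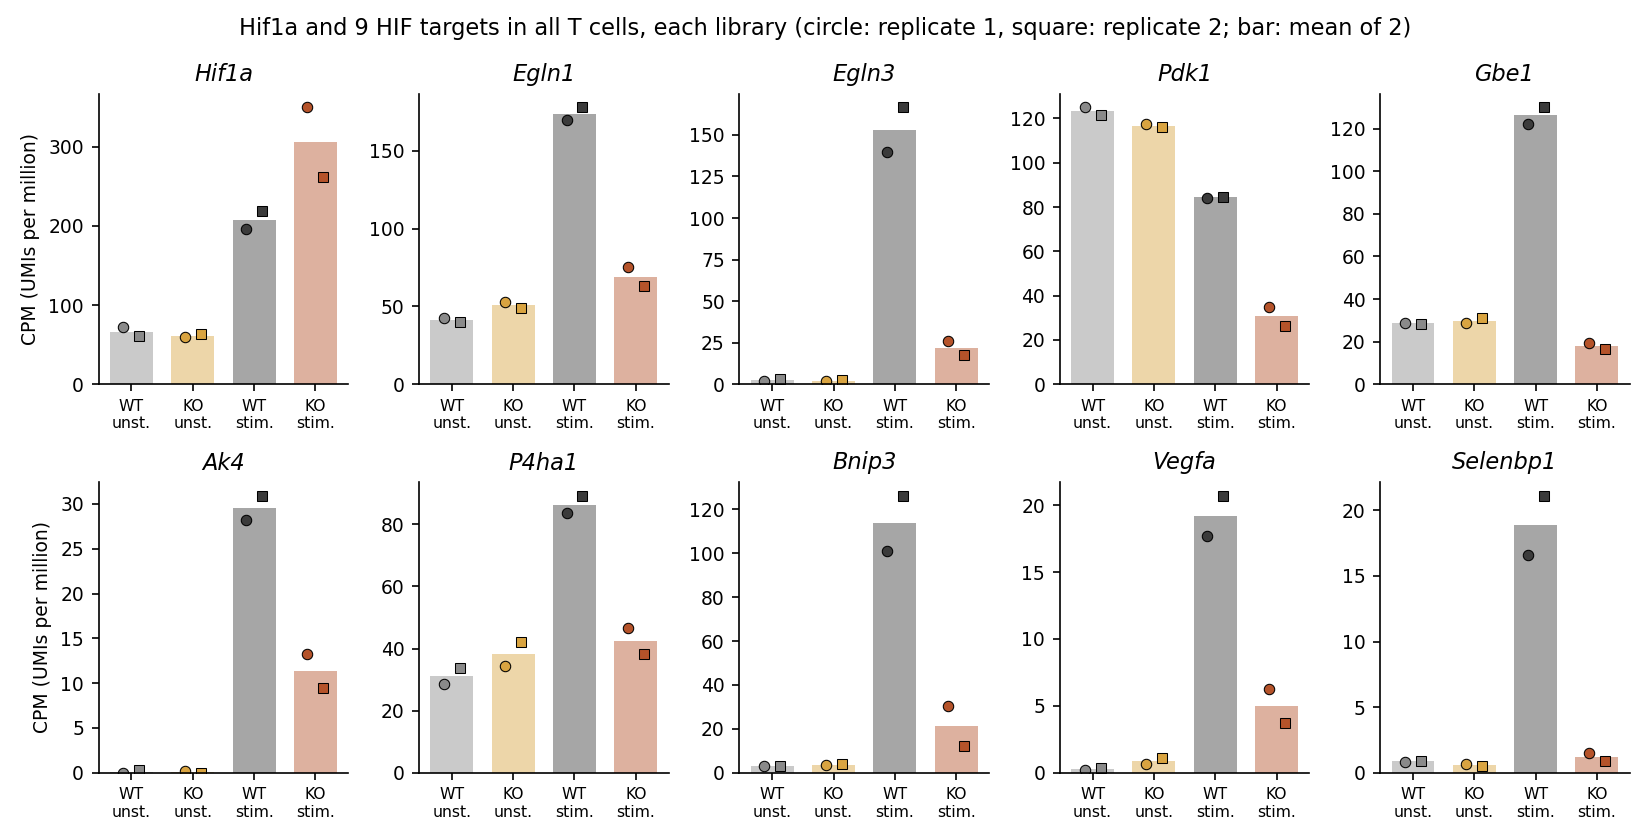
Levels of the 10 genes in all T cells, in CPM on a linear axis from 0, with 1 point per library and bars at the mean of 2 libraries for unstimulated (unst.) and stimulated (stim.) WT and SDHA-KO cells. Stimulated WT libraries stand above stimulated SDHA-KO libraries for the 9 target genes and below them for Hif1a, for example 139.7 and 166.6 against 26.1 and 17.9 CPM for Egln3.

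Before stimulation, edgeR called 0 of the 10 genes between SDHA-KO and WT in all T cells, CD4 or CD8 cells, where 1.75%, 1.10% and 0.947% of genes tested were called. Ak4, Vegfa and Selenbp1, and in CD8 cells also Egln3, passed the filter only through the stimulated groups, so in a fit of the unstimulated groups alone 7, 7 and 6 of the 10 could be tested, and 0 were called. At an unadjusted p under 0.05 there were 1, 3 and 0 of the 10, beside 2724 of 15262, 2282 of 14264 and 1852 of 13095 genes tested. DESeq2 also called 0 of the 10 in each set. Hif1a was at 59.4 and 63.4 CPM in SDHA-KO beside 71.9 and 60.7 CPM in WT (log2 fold change −0.11, SE 0.145, adjusted p = 0.765). Egln1 was at 53.1 and 49.0 CPM beside 42.4 and 40.0 CPM (0.31, SE 0.103, adjusted p = 0.161). P4ha1 was at 34.5 and 42.0 beside 28.5 and 33.7 CPM (0.30, SE 0.137, adjusted p = 0.290). Both SDHA-KO libraries lay above both WT libraries for Egln1, P4ha1, Bnip3 and Vegfa and below them for Pdk1 and Selenbp1, all short of the threshold. With 2 libraries a group such separation is common, and its share over all genes was not computed. Pdk1 (117.3 and 116.3 beside 125.0 and 121.4 CPM), Gbe1 (28.6 and 31.0 beside 28.9 and 28.3 CPM), Egln3 (2.13 and 2.34 beside 1.86 and 2.89 CPM), Bnip3 (3.40 and 4.04 beside 3.11 and 3.16 CPM) and Selenbp1 (0.632 and 0.496 beside 0.828 and 0.903 CPM) had adjusted p of 0.606 to 0.964. Vegfa had 24 UMIs in SDHA-KO and 6 in WT, a ratio of 3.1 with a counting interval of 1.23 to 9.27 (edgeR adjusted p = 0.326). Ak4 had 2 and 3 UMIs, and no difference was detectable at that depth.

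The unstimulated levels varied among subsets. Naive CD4 cells held Hif1a at 50.9 and 46.0 CPM in WT and 51.1 and 55.8 CPM in SDHA-KO libraries, on the scale of the subset's own UMIs. The much smaller CD4 effector memory (Tem) subset, 67 to 91 cells per library, held it at 212.2 and 190.0 CPM in WT and 151.5 and 125.6 CPM in SDHA-KO. Regulatory T cells (Treg, 73 to 92 cells) were between them, at 123.7 and 109.5 CPM in WT and 76.4 and 67.1 CPM in SDHA-KO. Egln3 was at 0.182 to 1.16 CPM in naive CD4 cells over the 4 libraries and at 9.29 to 17.4 CPM in CD4 Tem cells. Pdk1 had the opposite order, 126.8 to 142.6 CPM in naive CD4 and 33.9 to 46.5 CPM in CD4 Tem cells. These subset names come from the deposited cell table, the levels were not tested, and the lowest values rest on few UMIs.

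After stimulation the 9 target genes were lower in SDHA-KO than in WT T cells and Hif1a was higher. In this comparison 26.2% of all genes were called higher and 21.0% lower, beside 1 and 9 of the 10, counts that the choice of the genes already used. The median log2 fold change of the 10 was −1.70, and that of all genes was 0. Hif1a was at 195.5 and 218.5 CPM in WT and 349.8 and 262.2 CPM in SDHA-KO libraries, 1.48-fold higher (log2 fold change 0.56, SE 0.127). Fewer cells of a kind and less RNA per cell cannot be told apart in sums over a library, for this gene and for those that follow.

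The hydroxylase genes were lower in SDHA-KO. Egln1 was at 169.4 and 177.8 CPM in WT and 75.3 and 62.9 CPM in SDHA-KO libraries (log2 fold change −1.33, SE 0.0879), and Egln3 at 139.7 and 166.6 against 26.1 and 17.9 CPM (−2.80, SE 0.16). Egln3 in SDHA-KO still stood above its unstimulated level of 2.13 and 2.34 CPM, and Egln1 was 1.35-fold above its own.

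Gbe1 in stimulated SDHA-KO cells lay below its own unstimulated level. It was at 122.4 and 130.0 CPM in WT and 19.4 and 16.4 CPM in SDHA-KO libraries, 7.06-fold lower (log2 fold change −2.82, SE 0.0881), and its unstimulated SDHA-KO level was 28.6 and 31.0 CPM. Selenbp1 had the largest log2 difference of the 10, from 16.6 and 21.1 CPM in WT to 1.53 and 0.914 CPM in SDHA-KO (−3.94, SE 0.21). Pdk1 was at 84.3 and 84.5 CPM in WT and 35 and 26.4 CPM in SDHA-KO (−1.46, SE 0.108).

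Bnip3 was at 101.1 and 126.1 CPM in WT and 30.4 and 12.4 CPM in SDHA-KO libraries (log2 fold change −2.41, SE 0.306). Its SDHA-KO libraries were the most uneven, and without replicate 1 of stimulated SDHA-KO the value was −3.21 (−3.27 in CD4 and −3.13 in CD8 cells). Vegfa was at 17.7 and 20.7 CPM against 6.26 and 3.75 CPM (−1.94, SE 0.208), and Ak4 at 28.2 and 30.9 against 13.2 and 9.47 CPM (−1.38, SE 0.18). P4ha1 had the smallest difference of the 9, with 83.6 and 89.2 CPM in WT and 46.5 and 38.2 CPM in SDHA-KO (−1.03, SE 0.112). Replicate 1 of stimulated SDHA-KO lay above replicate 2 for all 10 genes, Hif1a included.

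Read from the unstimulated state of the same genotype, stimulation of SDHA-KO cells called 7 of the 10 genes higher and 2 lower, beside 38.5% and 32.6% of all genes. This comparison shares the stimulated SDHA-KO libraries with the difference on which the genes were chosen. Hif1a rose 4.98-fold, from 59.4 and 63.4 to 349.8 and 262.2 CPM (SE of the log2 value 0.14, adjusted p = 2.45e-07). Egln3 rose 9.80-fold (SE 0.269, adjusted p = 2.16e-06) and Bnip3 5.72-fold (SE 0.465, adjusted p = 0.000773). Ak4 rose from 2 to 1179 UMIs, a ratio of 151 with a counting interval of 41.8 to 1250. Vegfa rose 5.57-fold (adjusted p = 0.000178) and Selenbp1 2.17-fold (adjusted p = 0.034). The Selenbp1 call was lost in the fit of 2 groups, after thinning, and without replicate 2 of unstimulated WT, either replicate of unstimulated SDHA-KO or replicate 1 of stimulated SDHA-KO, where its log2 value was 0.68 in place of 1.12. Egln1 rose 1.35-fold (log2 fold change 0.44, SE 0.0933, adjusted p = 0.00196). P4ha1 did not pass the test (0.14, SE 0.122, adjusted p = 0.315). Gbe1 fell 1.67-fold (−0.74, SE 0.0948, adjusted p = 6.1e-05) and Pdk1 3.81-fold (−1.93, SE 0.112, adjusted p = 1.86e-07).

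The CD4 and CD8 classes were then taken apart. In CD4 cells, where 22.7% of genes were called higher and 20.5% lower, the 9 targets had log2 differences from −0.85 (P4ha1, SE 0.107) to −4.23 (Selenbp1, SE 0.249). In CD8 cells, where 26.8% were called higher and 23.5% lower, they ran from −1.12 (Egln1, SE 0.0836) to −3.53 (Selenbp1, SE 0.202). Both SDHA-KO libraries lay below both WT libraries for all 9 targets in each class, a separation that the choice of the genes already used and that was not counted over all genes. Hif1a was at 208.1 and 232.2 CPM in WT and 423.8 and 300.8 CPM in SDHA-KO CD4 cells (log2 difference 0.72, SE 0.132). In CD8 cells it was at 183.1 and 202.2 CPM in WT against 238.4 and 163.6 CPM in SDHA-KO, so the groups overlapped (0.06, SE 0.154), and without replicate 1 of stimulated SDHA-KO the value was −0.25. Leaving out that library also moved Ak4 in CD8 cells from −1.59 to −2.23 and Selenbp1 in CD4 cells from −4.23 to −4.83. In strict CD8 cells, 736 and 709 in WT and 169 and 147 in SDHA-KO libraries, the median of the 10 was −1.40 in place of −1.75. The difference was larger for Bnip3 (−2.87 in place of −2.17), Egln3 (−3.01 in place of −2.58) and Egln1 (−1.34 in place of −1.12). It was smaller for Vegfa (−1.45 in place of −1.91), Ak4 (−1.27 in place of −1.59), Pdk1 (−1.27 in place of −1.54) and Gbe1 (−2.68 in place of −2.86). P4ha1 (−1.26), Selenbp1 (−3.55) and Hif1a (0.01) hardly moved.

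The difference between the classes in the SDHA-KO effect was tested within libraries, and 4 of the 10 genes were called beside 22.4% of all genes. The test uses the stimulated libraries on whose difference the genes were chosen. Its p-values for these genes are therefore not independent of that choice. The Hif1a effect was lower in CD8 than in CD4 cells by 0.68 on the log2 scale (difference −0.68, SE 0.0589, adjusted p = 0.000589). It was −0.72 in strict CD4 and CD8 cells and −0.74 in cells with percent.mt under 10. P4ha1 was lowered more in CD8 cells (−0.43, SE 0.0781, adjusted p = 0.00711), although in strict cells its −0.38 was not called. Egln1 (0.38, SE 0.0792, adjusted p = 0.0129) and Egln3 (0.37, SE 0.0903, adjusted p = 0.0233) were lowered less in CD8 cells. In strict cells these were 0.14 and −0.08, neither called, and without replicate 1 of stimulated WT neither was called either (0.30 and 0.29). Egln3 was also not called without replicate 2 of stimulated SDHA-KO (0.32). The γδ T cell marker list summed to 14.2 and 18.9 CPM in WT and 203.3 and 211.0 CPM in SDHA-KO CD8-class cells, with all 5 of its genes detected in both groups, and its part in these class differences was not tested beyond the strict cells.

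In stimulated WT cells alone the classes differed for 3 of the 10 genes, a count near the share of 23.5% over all genes. Egln1 was lower in CD8 cells, at 158.7 and 175.0 CPM beside 213.5 and 213.3 CPM in CD4 cells on the scale of this fit (log2 difference −0.36, SE 0.0533, adjusted p = 0.00263). Selenbp1 was also lower, at 15 and 19.2 beside 21.3 and 26.5 CPM (−0.48, SE 0.109, adjusted p = 0.0158). P4ha1 was higher in CD8 cells, at 104.0 and 115.8 beside 83.1 and 84.6 CPM (0.39, SE 0.0521, adjusted p = 0.00166). Selenbp1 was not called in strict cells (−0.35) or without either WT replicate (−0.46 and −0.51). The value for P4ha1 was 0.19 and not called in cells with percent.mt under 10, and Egln1 was not called without replicate 1 of stimulated WT (−0.29).

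**Figure D2:**
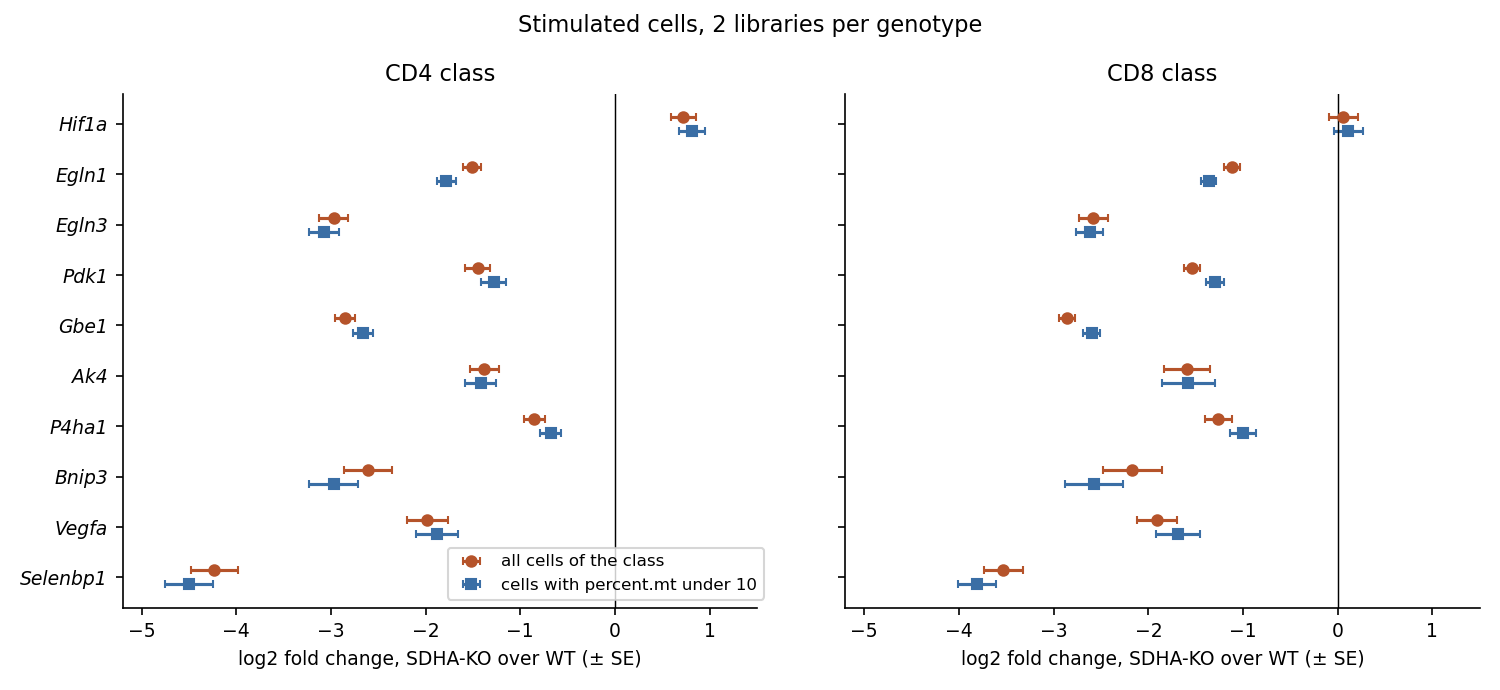
The SDHA-KO effect in stimulated CD4 and CD8 cells as the log2 fold change over WT with its SE from 2 libraries per genotype, in all cells of the class (circles) and in cells with percent.mt under 10 (squares). The 9 target genes lie below 0 in both classes and both cell sets, while Hif1a is at 0.72 in CD4 and 0.06 in CD8 cells.

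Restricting the sums to cells with percent.mt under 10 left the pattern in place. These cells are part of the libraries on whose difference the genes were chosen, so this is a description and not an independent check. How many of all genes separated in the same way was not computed. Both SDHA-KO libraries were below both WT libraries for 9 of 10 genes in all T cells, in CD4 and in CD8 cells, with median log2 differences of −1.73, −1.83 and −1.64. In all T cells the 9 differences ran from −0.81 (P4ha1) to −4.27 (Selenbp1). Egln1 was at 209.9 and 209.6 CPM in WT and 74.2 and 61.0 CPM in SDHA-KO low-mitochondrial cells (−1.63, SE 0.0892), and Egln3 at 150.3 and 170.0 against 25.5 and 17.1 CPM (−2.91, SE 0.161). Hif1a was at 179.2 and 197.7 against 337.2 and 248.2 CPM (0.63, SE 0.13). Gbe1 was at 100.9 and 102.6 against 17.8 and 15.2 CPM (−2.63, SE 0.0843).

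The same held cluster by cluster, again in parts of the libraries on whose difference the genes were chosen and without a count over all genes. Of the clusters named in the deposited cell table, 8 in the CD4 and 4 in the CD8 class had at least 20 cells in each stimulated library. Both SDHA-KO libraries were below both WT libraries in all of these 12 clusters for Egln1, Egln3, Bnip3, Pdk1, Ak4, Gbe1, Vegfa and Selenbp1. P4ha1 was below in 7 of 8 CD4 and 4 of 4 CD8 clusters, and in the exception, CD4 Tcm2, it was at 120.7 and 113.5 CPM in WT and 139.3 and 80.4 CPM in SDHA-KO. Hif1a was above in 7 of 8 CD4 clusters and below in CD4 Tem7, at 566.7 and 619.0 CPM in WT and 546.0 and 424.9 CPM in SDHA-KO. In the 4 CD8 clusters its groups overlapped.

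Levels also differed between subsets, in both directions, with counts of called genes that were not far from the shares over all genes. Among stimulated WT CD4 cells, 4 of the 10 genes were higher and 4 lower in Tem than in central memory (Tcm) cells, beside 34.1% and 28.4% of all genes. Bnip3 was at 201.0 and 225.2 CPM in Tem and 40.5 and 55.2 CPM in Tcm cells (log2 difference 2.16, SE 0.0798, adjusted p = 3.64e-10). Egln1 was at 323.5 and 311.1 beside 131.2 and 145.3 CPM (1.20, SE 0.0642, adjusted p = 1.11e-08). Selenbp1 was also higher in Tem cells (1.29, SE 0.155, adjusted p = 1.54e-05). Gbe1 was lower in Tem cells, at 130.8 and 117.2 beside 229.0 and 266.9 CPM (−1.0, SE 0.0794, adjusted p = 4.05e-07), and so were P4ha1 (−0.63, adjusted p = 1.58e-05), Pdk1 (−0.50, adjusted p = 1.85e-05) and Hif1a (−0.27, adjusted p = 0.00276). Egln3 was called higher (0.29, adjusted p = 0.0009), but it was −0.50 when scaled by total UMIs and −0.15 in cells with percent.mt under 10.

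CD8 cells had 3 of the 10 genes called higher and 4 lower in Tem than in Tcm, beside 31.9% and 27.1% of all genes. Bnip3 (2.07, SE 0.078), Selenbp1 (1.40, SE 0.155) and Egln1 (0.90, SE 0.0755) were higher, and Gbe1 (−1.0, SE 0.0742), P4ha1 (−0.85, SE 0.0741), Pdk1 (−0.53, SE 0.0913) and Hif1a (−0.22, SE 0.0813) were lower. Hif1a was not called without either WT replicate (−0.24 and −0.18) or in cells with percent.mt under 10 (−0.45), and Pdk1 was not called without replicate 1 of WT (−0.36). Selenbp1 was not called in cells with percent.mt under 10 in either class (0.63 in CD4 and 0.88 in CD8). Egln3 (0.16, adjusted p = 0.116) was not called in CD8 cells. Ak4 and Vegfa passed the test in neither class. Scaled by total UMIs alone, all 10 genes were called in each class, with Egln3 in CD8 cells at −0.48, Ak4 at −0.63 in CD4 and −0.59 in CD8, and Vegfa at −1.01 and −0.87. Egln3 in CD8 cells was also called, at −0.58, in cells with percent.mt under 10, and at 0.21 and 0.20 when replicate 1 or 2 of stimulated SDHA-KO was left out, so its sign was not settled. Scaling by total UMIs alone moved the median of all genes from −0.03 to −0.82 in CD4 and from −0.03 to −0.67 in CD8 cells, and the split of higher and lower calls from 4789 and 3995 to 2653 and 7982 in CD4 and from 4277 and 3634 to 2607 and 6838 in CD8 cells. Bnip3 in CD4 Tem cells was at 201.0 and 225.2 CPM in WT and 37.7 and 17.2 CPM in SDHA-KO, and in CD4 Tcm cells at 40.5 and 55.2 against 10.5 and 3.46 CPM.

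Subset and mitochondrial share moved together in these libraries. Cells with percent.mt under 10 made up 95.6 and 95.4% of WT CD4 Tem cells and 5.7 and 6.7% of WT CD4 Tcm cells, and the median Tem cell held 60983 and 61520 UMIs beside 10849 and 10875 in Tcm cells. In SDHA-KO such cells made up 98.3 and 99.2% of CD4 Tem and 43.2 and 46.2% of CD4 Tcm cells, so the link was looser there. Comparing WT cells with percent.mt of 10 or more against those under 10, with the 13 mitochondrially encoded genes left out, called 4 of the 10 genes higher and 5 lower, beside 27.1% and 33.6% of all genes. Bnip3 was at 46.9 and 62.4 CPM in high and 214.2 and 250.8 CPM in low cells (log2 difference −2.10, SE 0.0601, adjusted p = 4.39e-12). Selenbp1 (−1.43, SE 0.11) and Egln1 (−1.10, SE 0.0509) were lower too. P4ha1 (0.62, SE 0.0685), Gbe1 (0.51, SE 0.0554), Pdk1 (0.38, SE 0.0529) and Hif1a (0.13, SE 0.0479) were higher in high-mitochondrial cells. Egln3 (−0.39, SE 0.055) and Ak4 (−0.28, SE 0.0858) were called lower but turned to 0.58 and 0.69 under scaling by total UMIs, which moved the median of all genes from 0.03 to 0.99 and the calls from 4100 higher and 5079 lower to 9737 and 2205. Hif1a was not called without either WT replicate or without replicate 1 of stimulated SDHA-KO (0.09 to 0.16), and Ak4 not without replicate 2 of WT (−0.16). Vegfa did not pass the test (0.16, SE 0.0938, adjusted p = 0.171), but was called at 1.12 under scaling by total UMIs.

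**Figure D3:**
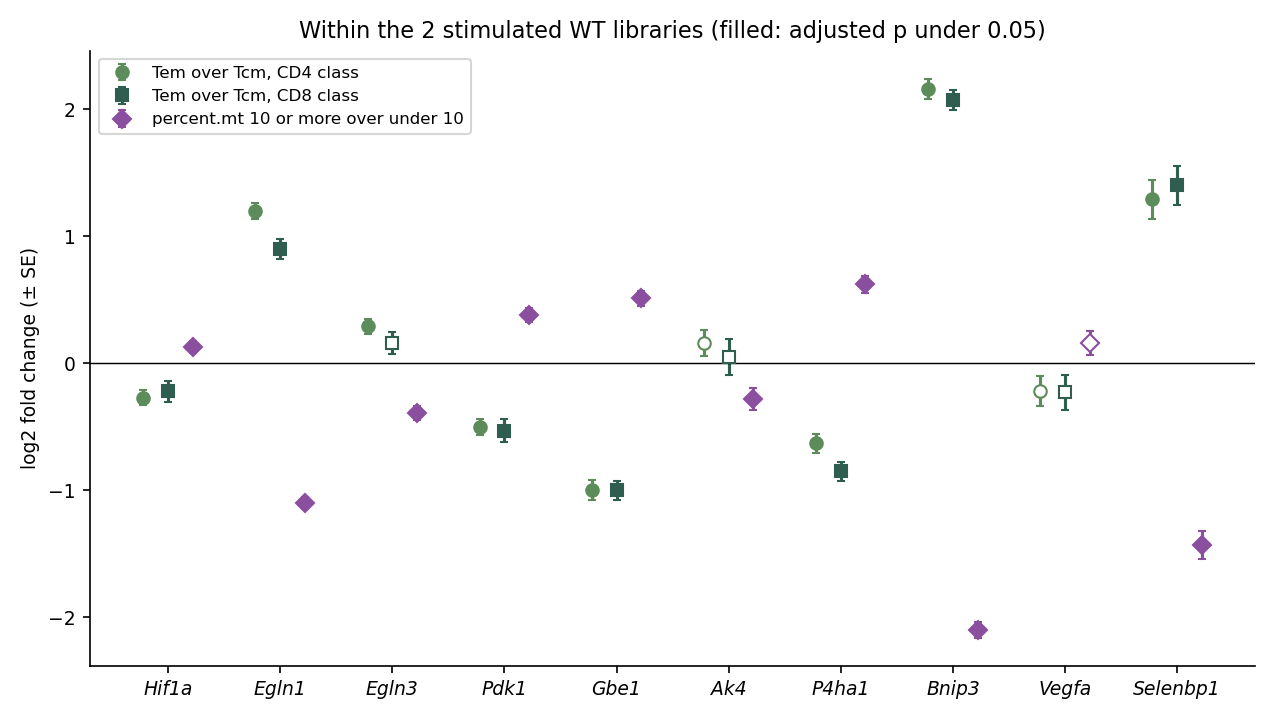
Differences within the 2 stimulated WT libraries as log2 fold changes with their SE, for Tem over Tcm cells of the CD4 class (circles) and CD8 class (squares) and for cells with percent.mt of 10 or more over under 10 (diamonds), with filled symbols where the adjusted p was under 0.05. Bnip3 has the widest range, 2.16 and 2.07 in Tem over Tcm and −2.10 in high over low mitochondrial share, while Gbe1, P4ha1 and Pdk1 have the opposite signs.

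Other genes of the pathway were read from 4 lists: components of the oxygen-sensing machinery, glycolytic targets, other targets, and relatives or partner enzymes of the 10 genes. In stimulated SDHA-KO against WT T cells, where 26.2% of all genes were called higher and 21.0% lower, 19 of 19 glycolytic targets were called lower and none higher, with a median log2 fold change of −0.69. Of 43 other targets tested, 35 were called lower, 2 higher and 6 were not called, with a median of −0.97 where all genes had a median of 0. Components had 5 of 15 called higher and 6 lower (median −0.09), and relatives and partners 7 of 21 higher and 8 lower (median −0.02). In cells with percent.mt under 10 the glycolytic list had 19 of 19 called lower (median −1.04) and the other targets 35 of 43 called lower and 0 higher (median −1.04), beside 16.9% of all genes called lower and 17.4% higher in those cells. There the components had 5 of 15 lower and 2 higher, and relatives and partners 10 of 21 lower and 1 higher. Bhlhe40 and Pgm2, the other targets called higher over all cells, were at 0.13 and 0.10 and not called. In the CD8 class 16 of 19 glycolytic and 31 of 40 other targets were called lower. Each list was written with earlier results known, so these counts describe the lists and are not independent evidence of a direction. Markers of myeloid cells summed to 77.4 and 76.5 CPM in stimulated WT and 134.3 and 144.7 CPM in SDHA-KO libraries with Lyz2 at 0 UMIs in both groups, and their part in these differences was not tested.

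Among glycolytic targets, Aldoc, an aldolase, was at 19.5 and 24.0 CPM in WT and 2.76 and 2.36 CPM in SDHA-KO libraries (log2 fold change −3.08, SE 0.153, adjusted p = 2.1e-06). The glucose transporter gene Slc2a3 was at 284.0 and 330.3 against 49.1 and 35.9 CPM (−2.85, SE 0.137). Slc16a3, which exports lactate, was at 175.8 and 178.4 against 73.1 and 37.2 CPM (−1.68, SE 0.232, adjusted p = 0.000316).

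Among other targets, the collagen hydroxylase subunit gene P4ha2 was at 22 and 22.8 CPM in WT and 2.96 and 2.10 CPM in SDHA-KO (−3.15, SE 0.243, adjusted p = 1.64e-05). Ero1l, an oxidase of the endoplasmic reticulum, was at 374.2 and 400.6 against 80.2 and 65.3 CPM (−2.41, SE 0.0943, adjusted p = 9.68e-07). Ndrg1, a stress-responsive gene, was at 48.7 and 51.5 against 10.9 and 9.07 CPM (−2.32, SE 0.105, adjusted p = 1.58e-06). The 2 genes called higher were Bhlhe40, a transcriptional repressor, at 62.3 and 78.0 against 94.7 and 89.1 CPM (0.39, SE 0.107, adjusted p = 0.0138), and Pgm2 (0.39), at 8.61 and 10.1 against 12.3 and 12.2 CPM, the latter named after its values were seen. Tmem45a had 134 UMIs in WT and 0 in SDHA-KO libraries, at least 42.8-fold lower against 3 UMIs over the group, and with it at that bound the list's median was −0.97. Unstimulated SDHA-KO cells had 3 of the 43 called, beside 1.75% of all genes, and all 3 were higher. They were Ankrd37, at 13.6 and 12.5 CPM beside 4.97 and 4.97 in WT (adjusted p = 0.00308), Bhlhe40, at 9.33 and 7.94 beside 2.07 and 3.07 (adjusted p = 0.0127), and Ndrg1, at 10.8 and 11.3 beside 4.97 and 6.05 (adjusted p = 0.0177). No gene of the other lists was called there. By class, 3 of 43 other targets were called in CD4 cells, beside 1.10% of genes, and 0 of 40 in CD8 cells, beside 0.947%. Cells with Trdc were also more frequent in the unstimulated SDHA-KO CD8 class, and their part in these differences was not tested. Ankrd37, named after its values were seen, and Ndrg1 were higher in SDHA-KO before stimulation and lower after it, at 45.6 and 45.1 CPM in WT against 17.6 and 14.7 CPM for Ankrd37.

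Of the HIF machinery, the partner gene Arnt was at 32.2 and 31.7 CPM in stimulated WT and 23.0 and 23.2 CPM in SDHA-KO (−0.47, SE 0.0661, adjusted p = 0.000352). Vhl was at 17.1 and 19.1 against 9.94 and 10.6 CPM (−0.82, SE 0.115, adjusted p = 0.000342), and the coactivator gene Ep300 at 43.2 and 43.8 against 33.5 and 34 CPM (−0.37). Epas1, which encodes HIF-2 alpha, was low in every library, at 1.68 and 1.95 CPM in stimulated WT and 2.36 and 0.914 CPM in SDHA-KO (−0.15, SE 0.369, adjusted p = 0.761). Of the VHL ubiquitin ligase, Rbx1 was higher at 244.7 and 265.6 against 351.7 and 374.0 CPM (0.51, adjusted p = 0.000439), as were Eloc (0.49) and Elob (0.31), while its scaffold gene Cul2 was not called (−0.09, adjusted p = 0.265). In cells with percent.mt under 10 none of these 3 was called (Rbx1 0.11, Eloc 0.06, Elob −0.14) and neither was Arnt (−0.21, adjusted p = 0.0544), whereas Vhl stayed lower (−1.10, adjusted p = 9.99e-05). Cited2, a competitor for the coactivators, was lower (−0.33, adjusted p = 0.00636).

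Relatives of the 10 genes were called in both directions when all cells were summed, but in cells with percent.mt under 10 nearly all of the higher calls were lost. The third hydroxylase gene Egln2, at 13.9 and 14 CPM in WT, was higher in SDHA-KO at 18.2 and 19.7 CPM (0.44, SE 0.0942, adjusted p = 0.00384), whereas Egln1 and Egln3 were lower. Pdk3 was lower (−0.48, adjusted p = 0.000865), and Pdk2 stayed at or under 1.05 CPM in stimulated libraries and did not pass the test. Ak3 was higher (0.35, SE 0.0972, adjusted p = 0.0145), while Ak4 was lower. Ak1 was higher too, from 0.172 and 0.0708 CPM in WT to 1.51 and 1.56 CPM in SDHA-KO. Bnip3l, a relative of Bnip3, was at 166.1 and 184.6 against 90.7 and 66.2 CPM (−1.16, SE 0.124). Vegfb did not pass the test (−0.25, SE 0.122, adjusted p = 0.121) and Vegfc was called higher at no more than 0.348 CPM. P4ha3 was at most 0.159 CPM and was not tested. For glycogen, Gys1, the synthase, was lower (−1.92, SE 0.114), while Gyg, the glycogenin primer, was higher at 29.7 and 31.3 CPM beside 22.4 and 22.9 CPM (0.43, adjusted p = 0.00109). Dlat of the pyruvate dehydrogenase complex was higher (0.31, adjusted p = 0.0032). In cells with percent.mt under 10, Egln2 (0.12), Ak3 (0.05), Gyg (0.06), Dlat (0.06) and Vegfc (2.18, adjusted p = 0.0525) were not called, Ak1 was the 1 gene of the list called higher (3.62), and Pdk3, Bnip3l, Gys1 and also Vegfb (−0.55, adjusted p = 0.00752) were called lower. Selenbp2, Pdk4 and Lox were not analysed here.

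**Figure D4:**
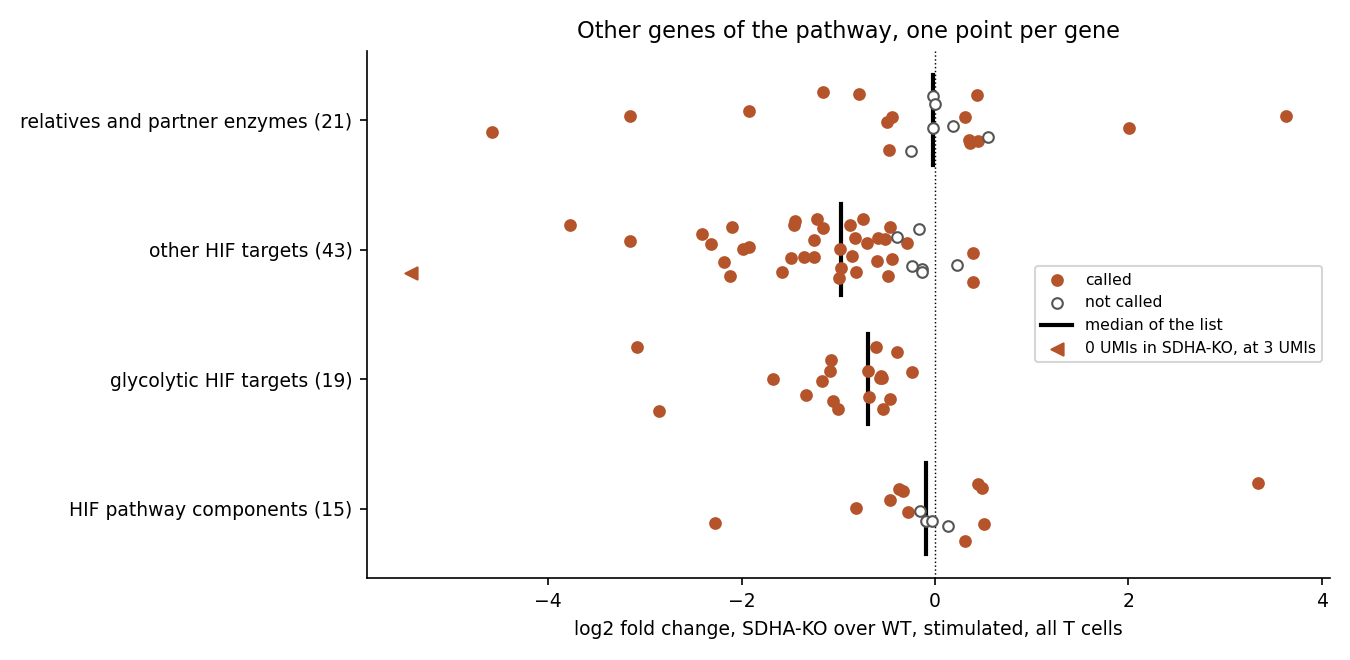
Other genes of the pathway by list, each point the log2 fold change of a gene in stimulated SDHA-KO over WT T cells, filled where the adjusted p was under 0.05, with the list's median as a bar and the number of genes tested in brackets. Medians are −0.69 for glycolytic targets and −0.97 for other targets, beside −0.09 for components and −0.02 for relatives and partners, and Tmem45a (0 UMIs in SDHA-KO) is drawn at the bound from 3 UMIs.

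Over the 16 points given by 8 libraries and 2 classes, the genes whose log2 CPM most resembled the mean standardized level of the 9 targets were Slc2a3 (Pearson r 0.981), Hist1h4d (0.971), Hmgcs1 (0.970), Pgm1 (0.969) and Msmo1 (0.967), of 5718 genes compared. Slc2a3 and Pgm1 act in glucose transport and glycogen metabolism, Hmgcs1 and Msmo1 in sterol synthesis, and Hist1h4d encodes a histone. The points share libraries in pairs; no p is given. Of the 9 targets themselves, Egln1 had r = 0.984, Bnip3 0.960, Selenbp1 0.956, Egln3 0.948, P4ha1 0.933, Vegfa 0.913, Gbe1 0.862, Ak4 0.848 and Pdk1 −0.114. Each of these 9 is itself part of the mean, which raises its r, so these values cannot be set beside those of the other genes. Hif1a, which is not part of the mean, had 0.654.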

How the data were processed

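Pan-T cells of 8 libraries were sequenced as 3′ single-cell RNA. Per the study, reads were processed with bcl2fastq and Cell Ranger (mm10; versions not given in the sources used here), cells with unusually many detected genes and clusters without Cd3 genes were removed, and the authors deposited raw UMI counts per gene and cell with a cell table holding percent.mt (the percent of UMIs on mitochondrial genes, computed by the authors), CD class and Subtype. Library names in that table were read as WT or KO, nt as unstimulated and tr as stimulated. Doublets were not called again. Of 12823 distinct barcode sequences, 23 occurred in 2 libraries.

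UMIs were summed per library (all T, CD4, CD8) and fitted with edgeR 4.0.16 (quasi-likelihood, TMM, filterByExpr with a minimum count of 10, all 4 groups), with Benjamini-Hochberg adjustment over all genes and a threshold of 0.05. Comparisons between classes, subsets or mitochondrial shares kept the library as a block. Ratios from few UMIs carry exact 95% intervals that cover counting error only. The fits were tested on simulated data. Alternatives were DESeq2 1.42.0, scaling by library size, removal of mitochondrial genes, no filter, cells with percent.mt under 10, 2-group fits, a replicate block, thinning, strict classes and leaving out each library.

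The members and lists were chosen with earlier results of these data known. The text names every member, the 3 genes of each list with the largest called change in each direction at 20 CPM or more, Arnt, Epas1, Vhl, relatives of the members and the 5 genes most like the targets. Promoters came from RefSeq. A gene that this rule names is not reported here.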

Additional observations from a re-analysis of the deposited data

Results flagged for a closer look

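Each value here is a difference between groups in the same contrast, on the log2 scale, tested within libraries by edgeR with adjustment over all genes. All of these tests use the stimulated libraries on whose difference the genes were chosen, so their p-values are not independent of that choice. The SDHA-KO effect in stimulated cells differed between the CD8 and CD4 classes for Hif1a (−0.68, adjusted p = 0.000589), P4ha1 (−0.43, adjusted p = 0.00711), Egln1 (0.38, adjusted p = 0.0129) and Egln3 (0.37, adjusted p = 0.0233). In strict cells Hif1a alone of these was called, where calls over all genes fell from 3270 of 14617 to 1430 of 13737.

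The difference between Tem and Tcm cells of the CD4 class was smaller in SDHA-KO than in WT for Egln1 (−0.66, SE 0.116, adjusted p = 0.00961), which was 1.20 in WT and 0.54 in SDHA-KO. For Pdk1 it was −0.50 in WT and −0.04 in SDHA-KO (difference 0.46, SE 0.114, adjusted p = 0.046). This test called 1 of the 10 genes higher and 1 lower, beside 654 of 14044 genes in either direction. In the CD8 class 0 of the 10 were called, beside 25 of 13395 genes, with Egln1 at −0.17 (adjusted p = 0.585) and Pdk1 at 0.49 (adjusted p = 0.232).

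The difference between cells with percent.mt of 10 or more and under 10 also varied with genotype. The Tem and Tcm cells were split by this limit in unlike shares in WT and SDHA-KO, and the part of that in these values was not tested. The log2 difference of high over low cells was 0.13 in WT and −0.14 in SDHA-KO for Hif1a (difference −0.27, SE 0.0706, adjusted p = 0.0247), and −1.10 and −0.62 for Egln1 (0.49, SE 0.0949, adjusted p = 0.00573). It was 0.38 and −0.02 for Pdk1 (−0.40, SE 0.103, adjusted p = 0.0243), and 0.16 and −0.74 for Vegfa (−0.90, SE 0.244, adjusted p = 0.0324). This test called 1 of the 10 genes higher and 3 lower, beside 949 and 847 of 15126 genes. No test for a library far from the others was possible with 2 libraries a group.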

How the results depend on the processing

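The 9 targets were lower in stimulated SDHA-KO cells under every alternative run. Over the libraries left out, the median of the 10 genes ran from −2.03 to −1.45 in all T cells, −2.03 to −1.50 in CD4 and −2.34 to −1.52 in CD8 cells, with the lowest CD8 value reached without replicate 1 of stimulated SDHA-KO. The count of genes whose SDHA-KO effect differed between classes fell from 4 to 1 in strict cells. Genes called over the whole table fell as well, from 3270 of 14617 to 1430 of 13737. The count differing between CD8 and CD4 cells of stimulated WT went from 3 to 5 without mitochondrial genes, 6 without the filter and 5 in strict cells, and ran from 1 to 6 over the libraries left out. Called values that turned sign were Pdk1 on stimulation of WT CD8 cells (0.13, library size only), Egln3 in CD8 minus CD4 (−0.08, strict cells), Egln3 in Tem against Tcm CD4 cells (−0.50, library size only; −0.15, percent.mt under 10), and Egln3 (0.58) and Ak4 (0.69) by mitochondrial share (library size only); the cause was not tested. Not called as reported, Hif1a in stimulated SDHA-KO against WT CD8 cells (0.06) was −0.25 without replicate 1 of stimulated SDHA-KO, and Egln3 and Ak4 in Tem against Tcm cells turned sign as given above. In unstimulated cells no gene was called in any alternative, DESeq2 among them, with 7, 7 and 6 genes tested in the fit of 2 groups. On stimulation of SDHA-KO the count of 9 ran from 8 to 10 in all T cells, 7 to 9 in CD4 and 7 to 9 in CD8 cells, where Selenbp1, Egln1 (CD4), and Bnip3 and P4ha1 (CD8) lost calls.

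Same-numbered replicates had deviations that correlated at −0.082 to 0.104. Values this low cannot show whether same-numbered libraries had a source in common, and the labels do not say. With the replicate block, 10 of 10 genes were called on stimulation of WT in each cell set, 9, 8 and 9 on stimulation of SDHA-KO in all T, CD4 and CD8 cells, and 0 between unstimulated genotypes. The median in stimulated SDHA-KO against WT was −1.71 in all T cells, and genes called over the whole table went from 7197 to 6905.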
